A study of Mus musculus with 1920 samples.

Results

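The genes described here are 10 antioxidant enzyme genes, Gpx1, Gpx2, Gpx3, Gpx4, Sod1, Sod2, Cat, Prdx1, Txnrd1 and Nqo1, out of the 55471 genes of the count table. They were chosen by name for what their enzymes do, with no rule on measured values. All 10 were found in the table, and all 10 passed the filter on low counts that preceded the comparison of aged with young mice. They were followed over the 1836 of 1920 sorted cells in which at least 1000 genes had a read.

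The cells were Lgr5high cells, that is, cells sorted as intestinal stem cells (ISCs) of the mouse small intestine. They came from 3 young mice (young mice 1, 2 and 3) and 4 aged mice (aged mice 1, 2, 3 and 4). Every mouse carried the same allele, B6.129P2-Lgr5tm1(cre/ERT2)Cle/J, a knock-in at the Lgr5 locus that makes green fluorescent protein and a tamoxifen-dependent Cre under the control of Lgr5 and that both ages shared. The sources used here do not give the exact ages of these 7 mice. After the crypts had been dissociated, the cell suspension was taken up in a medium with N-acetylcysteine, itself an antioxidant. Each cell was made into a full-length cDNA library by a Smart-seq2 method without molecular identifiers, so that reads are not independent molecules.

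Cells make superoxide and hydrogen peroxide when they respire, and these enzymes remove them in steps. Superoxide dismutases turn superoxide into hydrogen peroxide, and catalase, the glutathione peroxidases and the peroxiredoxins reduce the peroxide. Glutathione and thioredoxin supply the electrons and are in turn reduced at the expense of NADPH, in the case of thioredoxin by thioredoxin reductase. Several of the genes, Nqo1 the best known among them, are targets of the transcription factor Nrf2. In the intestine, Gpx2 is known as the glutathione peroxidase of the epithelium and of its crypts.

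The 10 genes lie on 9 chromosomes of the GRCm38 genome. Gpx1, the cytosolic glutathione peroxidase, lies on the plus strand at chr9:108338903-108340343. Gpx2 lies on the minus strand at chr12:76792333-76795554. Gpx3, the secreted plasma enzyme, lies on the plus strand at chr11:54902453-54910377. Gpx4, which reduces lipid hydroperoxides in membranes, lies on the plus strand at chr10:80047166-80056439. Sod1, the copper and zinc enzyme of the cytosol, lies on the plus strand at chr16:90220754-90226329, and Sod2, the manganese enzyme of mitochondria, on the plus strand at chr17:13006846-13040063. Cat, catalase, lies on the minus strand at chr2:103453849-103485160. Prdx1, a cytosolic peroxiredoxin, lies on the plus strand at chr4:116685544-116700822. Txnrd1, the cytosolic thioredoxin reductase, lies on the plus strand at chr10:82833951-82897712. Nqo1, a quinone reductase that uses NADH or NADPH, lies on the minus strand at chr8:107388225-107403206.

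In 5 of the 10 genes the coding sequence of the annotated transcript holds an internal TGA in frame, which these mRNAs read as selenocysteine, the residue that these enzymes use for catalysis, instead of a stop. The stretches around this codon are shown because they set the selenoenzymes apart from the other 5 genes. They were read from the GENCODE M21 transcripts, in the direction of transcription, with the TGA in capitals and 30 coding bases before it.
Gpx1: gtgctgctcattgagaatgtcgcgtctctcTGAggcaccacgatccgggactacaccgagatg
Gpx2: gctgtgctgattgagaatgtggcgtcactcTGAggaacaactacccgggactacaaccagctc
Gpx3: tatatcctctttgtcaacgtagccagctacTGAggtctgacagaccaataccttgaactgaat
Gpx4: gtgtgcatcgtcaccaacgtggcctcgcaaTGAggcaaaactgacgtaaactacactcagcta
Txnrd1: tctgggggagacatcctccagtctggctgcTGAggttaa
The codon is number 47 of 201 in Gpx1 and lies in exon 1 at chr9:108339451-108339453. It is number 40 of 190 in Gpx2, in exon 1 at chr12:76795256-76795258. It is number 73 of 226 in Gpx3, in exon 2 at chr11:54907256-54907258, and number 73 of 197 in Gpx4, in exon 3 at chr10:80054737-80054739. In the glutathione peroxidases it therefore lies in the first part of the coding sequence. In Txnrd1 it is codon 498 of 499, in exon 14 at chr10:82896037-82896039, just before the stop codon with which the printed stretch ends.

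Promoters were searched for TGACNNNGC, the core of the antioxidant response element bound by Nrf2, on both strands, from 250 bases before to 50 bases after each start in the RefSeq table for GRCm38.p6. The 10 genes have 15 promoters there, of which 3 had a match, 1 each of Sod1, Prdx1 and Txnrd1, and 12.4% of all 32851 promoters in the table had one. A match is a run of letters and does not show binding.

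The median kept cell held 305492 reads, and the sum per mouse ranged from 49447464 to 134408884 reads. The sort was checked against 10 ISC markers fixed together with the other lists. All 10 were read, and Lgr5 itself stood at 177 to 451 reads per 1000000 reads (CPM, scaled by TMM) and Olfm4 at 11322 to 19561 CPM in the 7 mice. Each cell was then assigned to the marker list with the highest mean log2(CPM + 1). ISC markers led in 1570 cells, Paneth cell markers in 124, enterocyte markers in 65, goblet cell markers in 53, tuft cell markers in 17, enteroendocrine markers in 4, stromal and endothelial markers in 3 and immune markers in 0. The share of cells not led by ISC markers was 13.8%, 5.95% and 7.71% in young mice 1, 2 and 3 and 10.1%, 23.1%, 20.6% and 25.1% in aged mice 1, 2, 3 and 4. The mean was 9.14% ± 4.09 (SD, n = 3) in young and 19.7% ± 6.71 (SD, n = 4) in aged mice, and the groups overlapped (exact permutation test, two-sided, p = 0.0857, where the smallest p that 3 against 4 mice allow is 0.0286). Summed over a mouse, the 12 enterocyte markers reached 1105 to 1394 CPM in young and 1126 to 2912 CPM in aged mice, and 11 of the 12 had a positive log2 fold change with age. Of the 10 ISC markers 1 had a positive log2 fold change with age. All 7 goblet markers had a positive log2 fold change with age, at sums of 382 to 1146 CPM in young and 615 to 3016 CPM in aged mice. So did 7 of 9 Paneth markers (6948 to 23894 against 10546 to 25654 CPM), 6 of 8 enteroendocrine markers (8.68 to 117 against 93.0 to 414 CPM) and 6 of 7 tuft markers (5.18 to 92.7 against 50.0 to 186 CPM). The immune markers summed to 5.39 to 8.89 CPM in young and 14.0 to 32.2 CPM in aged mice, with 4 of the 5 tested above 0. Most of that sum was Itgae, at 3.01 to 5.46 CPM in young and 11.5 to 31.3 CPM in aged mice, whereas Ptprc and Cd3e were at most 3.35 and 0.142 CPM in any mouse. Next to these, the stromal and endothelial markers summed to at most 9.92 CPM in any mouse. The part of other cell types in the differences with age below was not tested, other than by the values for ISC-marker-led cells alone. In these summed counts, fewer cells of a type and less RNA per cell cannot be told apart.

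All 10 genes were read in every mouse. To compare genes with one another, CPM was divided by the length of the annotated principal transcript. Sod1 had the highest mean at 1013 ± 559 CPM per kilobase (SD, n = 7), but Prdx1 at 855 ± 109 was lower than Sod1 in only 3 of the 7 mice, so that these neighbors did not differ beyond their spread. Gpx2 followed at 513 ± 110 CPM per kilobase, and Gpx1 at 315 ± 67.2. Each step from Prdx1 to Gpx2, from Gpx2 to Gpx1 and from Gpx1 to Gpx4, at 78.7 ± 14.3, held in 7 of 7 mice. Cat at 39.2 ± 8.48 CPM per kilobase was above Txnrd1 at 35.2 ± 3.11 in 5 of 7 mice, and that pair overlapped. Sod2 at 22.6 ± 3.01 was below Txnrd1 in 7 of 7 mice. Nqo1 at 5.36 ± 1.77 and Gpx3 at 2.24 ± 3.28 were the lowest. The order rests on the transcript length: with the length of all annotated exons, Sod1 at 163 CPM per kilobase was in place 4 after Prdx1, Gpx1 and Gpx2, and the places from Gpx4 to Gpx3 were the same.

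**Figure D1:**
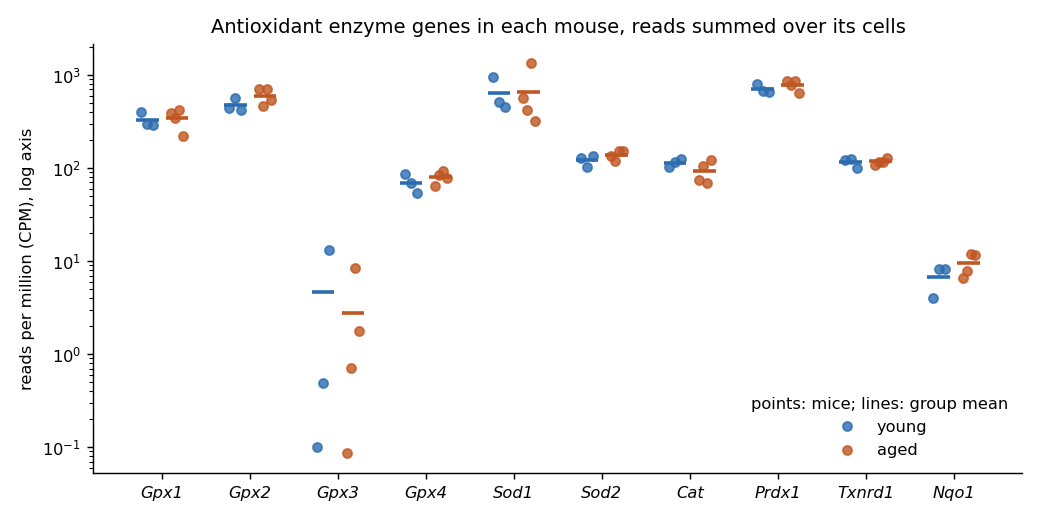
Levels of the 10 antioxidant enzyme genes as CPM (reads per 1000000, TMM-scaled, log axis) in each of 3 young (blue) and 4 aged (orange) mice, with a line at the group mean. Gpx3 spans 0.0858 to 13.3 CPM between mice, and young and aged mice overlap for each gene.

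Per cell, the genes fell into 3 kinds. In 1732 cells thinned to 100000 reads each, Prdx1 had a read in 99.9%, Sod1 in 99.5%, Gpx1 in 99.3% and Gpx2 in 99.2% of the cells, so that nearly every sorted cell carried these transcripts. The median cell held 65 reads of Prdx1, 47 of Gpx2, 27 of Sod1 and 24 of Gpx1. Sod2, Txnrd1, Gpx4 and Cat were read in 95.4%, 94.7%, 93.2% and 92.4% of the cells, with medians of 12, 11, 6 and 9 reads. Nqo1 was read in 24.8% and Gpx3 in 3.41% of the cells, and at this depth the median cell held 0 reads of either. A cell without a read may still hold the transcript below what this depth shows. The other 104 kept cells were shallower than 100000 reads and were left out of the thinned data.

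Of the 10 genes, none passed the test across all genes for a change with age. In that fit 0 of 20957 genes, 0%, passed an adjusted p of 0.05 (edgeR quasi-likelihood test, Benjamini-Hochberg adjustment). At an unadjusted p under 0.05 it listed 1098 genes or 5.24%, among them 0 of the 10. In counts simulated with the spread of these mice, this fit called 2.5% of genes changed by 1 on the log2 scale. It called 62% of genes changed by 2, so a gene without a call may still have changed. DESeq2 called 205 genes and limma voom 2, none of them among the 10. At a change of 1 in the simulated counts, DESeq2 called 35.5% of the changed genes. It also called 57 unchanged genes there, against 2 in edgeR. The young and aged mice did not overlap for 1177 genes or 5.62%, and for 0 of the 10. The log2 fold change was above 0 for 8 of the 10 genes with a median of 0.11, beside 51.7% of all genes with a median of 0.01. The median of the 10 was 0.065 without aged mouse 3, 0.067 without young mouse 3, 0.22 without aged mouse 4 and 0.23 without young mouse 1. Without aged mouse 3, and likewise without young mouse 3, 6 of the 10 were above 0.

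Among the glutathione peroxidases, Gpx1 stood at 398, 294 and 290 CPM in young mice 1, 2 and 3 and at 392, 344, 422 and 222 CPM in aged mice 1, 2, 3 and 4. The aged mice held both the highest and the lowest value. The log2 fold change was 0.08 ± 0.23 (SE) with an unadjusted p of 0.754 in the edgeR fit. Gpx2 stood at 445, 565 and 420 CPM in young and at 701, 462, 703 and 534 CPM in aged mice. Aged mice 1 and 3 were above all young mice, and aged mice 2 and 4 lay within the young range. Its log2 fold change was 0.33 ± 0.20 (SE, unadjusted p = 0.132, edgeR).

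Gpx4 stood at 85.6, 68.4 and 54.2 CPM in young and at 64.9, 83.9, 93.8 and 77.6 CPM in aged mice, a log2 fold change of 0.21 ± 0.20 (SE, unadjusted p = 0.321, edgeR). Its processed pseudogene Gpx4-ps2 matches the transcript over 762 bases at 99.7% identity and took a number of reads equal to 23.3% of those counted on Gpx4. How the counting split such reads is uncertain. Gpx4-ps2 stood at 12.2 to 19.6 CPM in young and 16.4 to 22.0 CPM in aged mice, and the ranges overlapped.

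Gpx3 stood at 0.102, 0.490 and 13.3 CPM in young and at 0.0858, 0.712, 8.48 and 1.76 CPM in aged mice. These levels came from few cells. Over all 1836 cells it had a read in 92, and in young mouse 3 a single cell held 60.8% of the 1778 reads, whereas in aged mouse 3 a single cell held 92.5% of the 576 reads. The log2 fold change of -0.75 ± 1.48 (SE, unadjusted p = 0.624, edgeR) is therefore a difference between a handful of cells, and it was 3.15 when young mouse 3 was left out.

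Of the superoxide dismutases, Sod1 stood at 943, 506 and 457 CPM in young and at 562, 423, 1329 and 324 CPM in aged mice. The highest value of each group, in young mouse 1 and in aged mouse 3, came from cells with the same code in their names. That code is taken here as the sequencing lane. The log2 fold change was 0.05 ± 0.46 (SE, unadjusted p = 0.910, edgeR). Without aged mouse 3 it was -0.53 and without young mouse 1 it was 0.45, so its sign rested on single mice. The processed pseudogene Gm8566, which matches the Sod1 transcript over 465 bases at 97.8% identity and took a number of reads equal to 21.4% of those of Sod1, was likewise highest in these mice, at 198 CPM in young mouse 1 and 288 CPM in aged mouse 3 against 71.1 to 129 CPM in the other mice. Sod1 also overlaps Scaf4 on the opposite strand, and it is not stated whether reads were assigned by strand. The part of the lane and of the pseudogene in the Sod1 values was not tested. Sod2 stood at 130, 104 and 136 CPM in young and at 133, 119, 154 and 152 CPM in aged mice, a log2 fold change of 0.18 ± 0.16 (SE, unadjusted p = 0.296, edgeR).

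Cat was the only gene of the 10 besides Gpx3 with a log2 fold change below 0. It stood at 102, 117 and 124 CPM in young and at 74.8, 106, 69.6 and 123 CPM in aged mice, a log2 fold change of -0.29 ± 0.22 (SE, unadjusted p = 0.213, edgeR). Aged mice 1 and 3 were below all young mice, and aged mouse 4 was close to the highest of them.

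Prdx1 stood at 802, 677 and 650 CPM in young and at 855, 777, 855 and 633 CPM in aged mice, a log2 fold change of 0.14 ± 0.17 (SE, unadjusted p = 0.434, edgeR). Txnrd1 was the steadiest gene of the 10, at 123, 126 and 100 CPM in young and 108, 117, 116 and 130 CPM in aged mice, a log2 fold change of 0.02 ± 0.15 (SE, unadjusted p = 0.922, edgeR). Prdx1 has a processed pseudogene, Gm21399, with 98.3% identity over 597 bases, whose reads equalled 3.44% of those of Prdx1, and Gpx2 and Txnrd1 overlap Fntb and Gm38560 on the opposite strand.

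**Figure D2:**
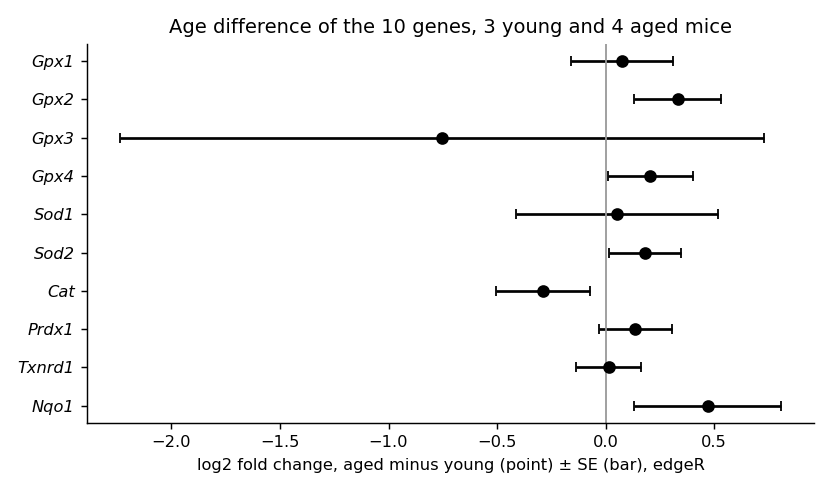
Log2 fold change of each gene, aged minus young (x axis; points, with bars of 1 standard error), from the edgeR fit over 3 young and 4 aged mice. Values lie between -0.75 for Gpx3 and 0.47 for Nqo1, and no gene passed the test.

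Lanes were taken from the code in the cell names, which the labels do not explain and which could also mark a plate. They held mice of both ages in 3 of 5 cases, so that the ages could be set side by side within a lane. Young mouse 2 was the young mouse beside both aged mouse 1 and aged mouse 2, so the 3 lanes are not independent. Cat was lower in the aged mouse in each of the 3 lanes, by log2 ratios of -0.56, -0.55 and -0.23. Sod2 was higher in the aged mouse in each, by 0.33, 0.25 and 0.20. With the lane as a block the log2 fold change was -0.45 ± 0.12 (SE) for Cat, with an unadjusted p of 0.00936 and an adjusted p of 0.568, and 0.26 ± 0.10 (SE) for Sod2, with an unadjusted p of 0.0386 and an adjusted p of 0.682, so that neither passed the adjustment in edgeR. Over all genes that fit listed 1743 of 24305 at an unadjusted p under 0.05. In it young mouse 2 enters once for each of its lanes, which overstates the replication. Aged mouse 4 and young mouse 3 were each alone in a lane and add nothing to the difference. Gpx1 was higher in the aged mouse in each lane, by 0.37, 0.09 and 0.23, and Prdx1 by 0.43, 0.09 and 0.10, whereas Txnrd1 was lower by -0.23, -0.09 and -0.13. The ratios of Gpx2, Gpx3, Gpx4, Sod1 and Nqo1 did not share a sign over the 3 lanes. How many of all genes share a sign over the 3 lanes was not determined.

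Nqo1 was the gene with the largest positive fold change of the 10. At 100000 reads a cell, its share of cells with a read did not overlap between the ages. Nqo1 stood at 3.99, 8.23 and 8.22 CPM in young and at 6.57, 7.79, 11.8 and 11.6 CPM in aged mice. This was a log2 fold change of 0.47 ± 0.34 (SE, unadjusted p = 0.198, edgeR) that was 0.20 without young mouse 1. In the thinned cells it was 0.80 ± 0.25 (SE, unadjusted p = 0.0092, adjusted p = 0.502, edgeR), in a fit that listed 1185 of 17117 genes at an unadjusted p under 0.05. At 100000 reads a cell, Nqo1 had a read in 15.8%, 23.0% and 16.9% of the cells of young mice 1, 2 and 3 and in 27.1%, 27.9%, 30.7% and 33.1% of those of aged mice 1, 2, 3 and 4. Each aged mouse was above each young mouse. The means were 18.6% ± 3.89 (SD, n = 3) in young and 29.7% ± 2.75 (SD, n = 4) in aged mice, a difference of 11.1 percentage points (exact permutation test, two-sided, p = 0.0286, the smallest p that 3 against 4 mice allow). The same test was run for each of the 10 genes, and the p of the other 9 ranged from 0.400 to 1. These p were not adjusted for the number of tests. How many of all genes separate the ages by this share was not determined. By CPM, 5.62% of all genes did not overlap between the ages. Before thinning, the median kept cell had 8659, 9581 and 8998.5 detected genes in young mice 1, 2 and 3. It had 8685, 9949.5, 9469 and 9748 in aged mice 1, 2, 3 and 4. The part of such differences in the share of Nqo1 was not tested. Within the 3 lanes that held both ages, the share was 27.1% in aged mouse 1 beside 19.5% in young mouse 2, 30.7% in aged mouse 3 beside 15.8% in young mouse 1, and 27.9% in aged mouse 2 beside 26.4% in young mouse 2. The aged mouse was thus higher in each lane, but by little in the last, where the CPM of Nqo1 was lower in the aged mouse. With 50000 reads a cell the difference was 9.08 points (exact p = 0.0571) and without thinning 13.6 points (exact p = 0.0571, or 2 of the 35 divisions of the mice). Without thinning each aged mouse was again above each young mouse, with a read in 32 of 160, 101 of 370 and 81 of 376 cells of the young mice and in 57 of 189, 65 of 186, 74 of 189 and 153 of 366 cells of the aged mice. Within the 1509 ISC-marker-led cells at this depth it was 9.86 points, at 14.7%, 23.4% and 15.4% in young and 26.5%, 24.3%, 28.5% and 31.6% in aged mice (exact permutation test, p = 0.0286).

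**Figure D3:**
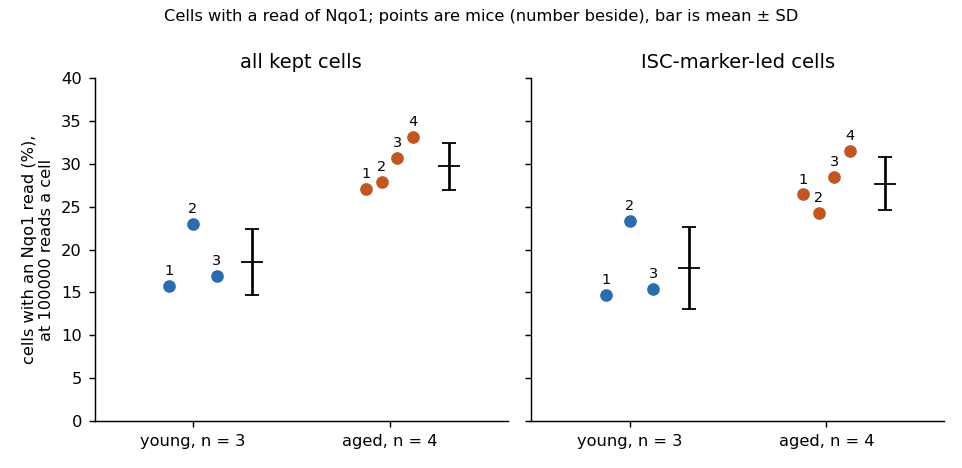
Percent of cells with at least 1 read of Nqo1 after thinning each cell to 100000 reads, by mouse, in all kept cells (left) and in ISC-marker-led cells (right), with mean ± SD beside the points. The aged mice sit between 27.1% and 33.1% on the left, above the young mice at 15.8% to 23.0%.

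The other genes that were not read in nearly every cell showed no such difference. Cat had a read in 89.0%, 96.3% and 93.5% of young and 86.1%, 95.0%, 88.1% and 92.4% of aged cells by mouse (exact permutation test, p = 0.400). Gpx4 had a read in 92.5% ± 2.97 (SD, n = 3) of the cells of young mice and 93.9% ± 1.35 (SD, n = 4) of those of aged mice, with overlap (exact permutation test, p = 0.429). Gpx3 had a read in 1.37%, 3.41% and 3.49% of young and 1.20%, 4.47%, 3.98% and 4.40% of aged cells by mouse (exact permutation test, p = 0.486).

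Around the 10 genes, 9 lists of 89 further genes of the same chemistry were examined, of which 84 passed the filter. With age 0 of the 84 passed the adjusted threshold in edgeR, 5 or 5.95% had an unadjusted p under 0.05, and 5 or 5.95% did not overlap between young and aged mice, shares close to the 5.24% and 5.62% of all genes. The log2 fold change was above 0 for 54 of the 84 (64.3%), beside 51.7% of all genes, with a median of 0.08. Of 9 other Nrf2 targets 9 were above 0 with a median of 0.16, of 11 other selenoproteins 9 with a median of 0.10, of 9 genes of NADPH supply 7 with a median of 0.14, and of 12 thioredoxins and glutaredoxins 7 with a median of 0.09. Of 8 genes of selenoprotein synthesis 5 were above 0 (median 0.12), of 9 genes of glutathione synthesis and recycling 5 (median 0.05), of 9 other peroxidases and dismutases 4, of 9 sources of peroxide and superoxide 4 and of 8 Nrf2 regulators 4, with medians of -0.0020, -0.0043 and -0.012. These counts moved with single mice: without young mouse 3 the genes of selenoprotein synthesis above 0 were 3 of 8, with a median of -0.0092, and the Nrf2 regulators 2 of 8. The sources were 2 of 9 without aged mouse 1 and 7 of 9 without aged mouse 2. The other Nrf2 targets above 0 were 7 of 9 without aged mouse 3, and also without any single young mouse. The other selenoproteins were 6 of 11 and all wider lists 48 of 85 without aged mouse 3.

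Of the 84 genes, 7 met the rule for naming, an unadjusted p under 0.05 or groups that did not overlap. Gsta4, a glutathione transferase that conjugates the lipid peroxidation product hydroxynonenal, stood at 7.42, 7.21 and 9.06 CPM in young and at 19.2, 14.6, 11.5 and 15.8 CPM in aged mice, so that each aged mouse was above each young one. Its log2 fold change was 0.95 ± 0.23 (SE, adjusted p = 0.486 in edgeR and 0.0113 in DESeq2). In the simulated counts described above, DESeq2 called unchanged genes more often than edgeR. In ISC-marker-led cells alone the log2 fold change of Gsta4 was 0.87 ± 0.34 (SE, adjusted p = 0.949, edgeR). Xdh, xanthine oxidoreductase, stood at 28.0, 26.2 and 20.7 CPM in young and at 42.7, 43.6, 28.0 and 33.8 CPM in aged mice, a log2 fold change of 0.57 ± 0.21 (SE, adjusted p = 0.828, edgeR), and 0.35 ± 0.30 in ISC-marker-led cells alone.

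Selenop, the secreted selenium carrier, stood at 125, 128 and 173 CPM in young and at 139, 410, 144 and 505 CPM in aged mice, with a log2 fold change of 1.08 ± 0.45 (SE, adjusted p = 0.915, edgeR) that was 0.17 ± 0.28 in ISC-marker-led cells alone. The high values were in aged mice 2 and 4, with 23.1% and 25.1% of cells not led by ISC markers, whereas aged mouse 3 with 20.6% of such cells lay within the young range. The part of these cells in the Selenop values was not tested. Duoxa2, the maturation factor of the peroxide-producing oxidase Duox2, stood at 13.2, 6.26 and 8.54 CPM in young and at 5.81, 2.57, 3.71 and 6.24 CPM in aged mice, a log2 fold change of -1.02 ± 0.38 (SE, adjusted p = 0.833, edgeR). Msra, a methionine sulfoxide reductase, had a log2 fold change of 0.52 ± 0.23 (SE, adjusted p = 0.948, edgeR) with overlapping groups. Chac1 and Chac2, which degrade glutathione, did not overlap between the ages in opposite directions. Chac2 was at 7.58 to 8.93 CPM in young and 9.47 to 12.2 CPM in aged mice, and Chac1 at 0.574 to 0.696 CPM in young and 0.0883 to 0.461 CPM in aged mice, with unadjusted p of 0.116 and 0.0629 in edgeR. In ISC-marker-led cells alone the log2 fold change was 0.34 ± 0.23 (SE) for Chac2 and -0.81 ± 1.01 (SE) for Chac1. Chac1 was low in every mouse. It was higher in Paneth-marker-led than in ISC-marker-led cells, by 4.73 ± 0.91 on the log2 scale (SE, adjusted p = 0.00312, edgeR). The part of Paneth-marker-led cells in its values was not tested.

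Within the sorted cells, several of the 10 genes differed between kinds of cells. ISC-marker-led cells of each mouse were ranked by the mean log2(CPM + 1) of 19 genes of the G2 and M phases of the cell cycle, and the upper tercile (525 cells, G2M-high) was compared with the lower tercile (521 cells, G2M-low) over 7 mice, with the mouse as a block. The 2 classes had nearly the same depth, with medians of 317437 and 318309 reads, but 9953 and 8459 detected genes. In this fit 1497 of 19590 genes (7.64%) were higher and 1021 (5.21%) lower in G2M-high cells (edgeR, adjusted p under 0.05). Of the 10 genes 4 were higher and 1 was lower. The classes were cut from a continuous score and are ranges rather than types of cell, with Lgr5 at 144 to 350 CPM in the G2M-high and 336 to 634 CPM in the G2M-low class. The cut was made within each mouse, so the scores of the classes overlapped between mice. The lowest score in G2M-high was 1.87 (median 7.94), and the highest in G2M-low was 2.63 (median 0.70).

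Nqo1 had the largest difference of the 10. It lay between 5.07 and 20.8 CPM (median 11.9) in G2M-high and between 0.842 and 8.17 CPM (median 3.22) in G2M-low cells, and it was higher in 7 of 7 mice. The log2 fold change was 2.18 ± 0.35 (SE, adjusted p = 0.00181, edgeR). Txnrd1 lay between 125 and 166 CPM (median 138) in G2M-high and between 82.3 and 106 CPM (median 95.9) in G2M-low cells, so that the lowest G2M-high value was above the highest G2M-low value. Its log2 fold change was 0.58 ± 0.08 (SE, adjusted p = 0.000811, edgeR). Both calls held in all 12 alternatives that were run.

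Gpx2 lay between 516 and 860 CPM (median 621) in G2M-high and between 402 and 572 CPM (median 525) in G2M-low cells and was higher in 7 of 7 mice, with a log2 fold change of 0.40 ± 0.07 (SE, adjusted p = 0.00321, edgeR). Without the mouse as a block the adjusted p was 0.0749. Gpx4 at 71.7 to 97.8 CPM against 42.5 to 73.3 CPM had a log2 fold change of 0.39 ± 0.11 (SE, adjusted p = 0.0342, edgeR), and the call held in 3 of 12 alternatives. Cat at 61.9 to 122 CPM against 77.6 to 140 CPM was lower in G2M-high cells in 7 of 7 mice, with a log2 fold change of -0.33 ± 0.09 (SE, adjusted p = 0.0310, edgeR), and the call held in 4 of 12 alternatives. Leaving out any of aged mice 2, 3 and 4 or young mice 2 and 3 ended both calls, leaving out aged mouse 1 ended that of Gpx4, and leaving out young mouse 1 ended that of Cat. Prdx1 had a log2 fold change of 0.18 ± 0.08 (SE, adjusted p = 0.195, edgeR), which was 0.26 ± 0.06 and passed without aged mouse 1 (adjusted p = 0.0243). The genes Gpx1, Gpx3, Sod1 and Sod2 did not pass the test, with adjusted p of 0.245 or more.

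**Figure D4:**
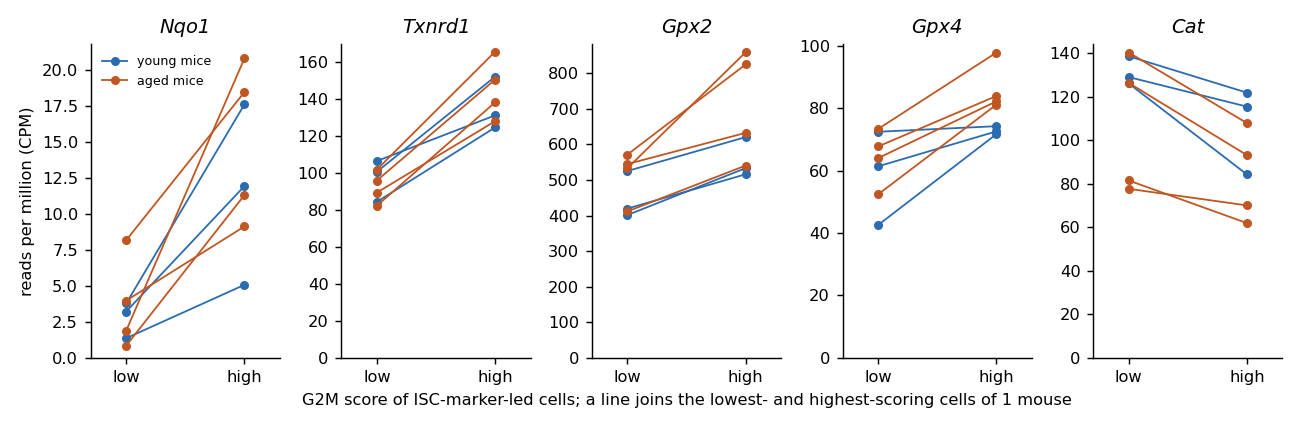
CPM of the 5 genes that passed the test in G2M-low and G2M-high ISC-marker-led cells; each line joins both classes of 1 mouse (blue young, orange aged), and axes start at 0. In 7 of 7 mice Nqo1, Txnrd1, Gpx2 and Gpx4 go up and Cat goes down from low to high.

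Of the wider lists, 7 genes were higher and 9 lower in G2M-high cells among 82 tested. Prdx4, a peroxiredoxin of the endoplasmic reticulum, had a log2 fold change of 1.61 ± 0.16 (SE, adjusted p = 5.32e-05), Selenoh, a nuclear selenoprotein, 1.35 ± 0.15 (adjusted p = 0.000140) and Txn1, cytosolic thioredoxin and the substrate of Txnrd1, 0.62 ± 0.08 (adjusted p = 0.000405). Txnip, the inhibitor of thioredoxin, was lower, at -0.65 ± 0.14 (SE, adjusted p = 0.00939, all edgeR). The remaining higher genes were Sephs1, Taldo1, Idh2 and Msra. The remaining lower genes were Noxo1, Cyba, Mafk, Glrx, Abcc1, Secisbp2, Sqstm1 and Ftl1. Of these, Abcc1 and Ftl1 are on the list of other Nrf2 targets, on which 0 genes were higher.

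The enterocyte-marker-led cells had higher levels of 4 of the 10 genes than ISC-marker-led cells of the same mice. This class held 65 cells, 34 of them from aged mouse 4, and 9 of them led by less than 1 on the log2 scale, and its median depth was 161950 reads against 317873 in ISC-marker-led cells. Fabp1, one of the 12 markers that defined it, lay between 976 and 6809 CPM, and Lgr5 still between 60.4 and 321 CPM. Lyz1, a Paneth cell marker, lay between 29.5 and 11825 CPM (median 103), above ISC-marker-led cells in 2 of 5 mice. Muc2, a goblet cell marker, lay between 8.24 and 344 CPM, above ISC-marker-led cells in 4 of 5 mice. No doublet caller was run. Mice with at least 5 such cells entered the fit, which were aged mice 2, 3 and 4 and young mice 1 and 3. The minimum was lowered from 10 after the counts of cells were seen, since 1 mouse alone reached 10. The fit called 2055 of 19363 genes (10.6%) higher and 2770 (14.3%) lower, and its median log2 fold change over all genes was -0.33, or -0.20 with the size factors of DESeq2, which split the calls into 2331 higher and 2044 lower. Values below are read beside that median.

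Nqo1 lay between 20.6 and 53.4 CPM in enterocyte-marker-led and between 3.21 and 10.9 CPM in ISC-marker-led cells, with no overlap over 5 mice, and its log2 fold change was 2.28 ± 0.31 (SE, adjusted p = 2.49e-05, edgeR). Gpx4 lay between 156 and 272 CPM against 48.0 to 80.2 CPM, a log2 fold change of 1.63 ± 0.21 (SE, adjusted p = 1.31e-05, edgeR). Cat lay between 170 and 443 CPM against 59.2 to 114 CPM, a log2 fold change of 1.51 ± 0.22 (SE, adjusted p = 4.78e-05, edgeR). Prdx1 lay between 904 and 1455 CPM against 584 to 789 CPM, a log2 fold change of 0.82 ± 0.20 (SE, adjusted p = 0.00633, edgeR). Each of the 4 was higher in 5 of 5 mice, and the 4 calls held in all 10 alternatives. Cat thus stood higher in enterocyte-marker-led cells and lower in G2M-high ISC-marker-led cells, whereas Nqo1 and Gpx4 were higher in both. Mki67, a marker of dividing cells, was lower in enterocyte-marker-led cells in 5 of 5 mice, at 27.4 to 595 CPM against 490 to 1505 CPM. Txnrd1 had a log2 fold change of 0.52 ± 0.21 (SE, adjusted p = 0.0790, edgeR), and Gpx2 one of -0.37 ± 0.19 (SE, adjusted p = 0.179, edgeR). Txnrd1 passed with the size factors of DESeq2 (adjusted p = 0.0323), in DESeq2 (0.0246), without the block (0.0489), without young mouse 1 (0.0175) and with a lead of at least 1 (0.0148). Gpx1 passed in DESeq2 (adjusted p = 0.0279) and Sod2 with a lead of at least 1 (adjusted p = 0.0403, edgeR).

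Of 82 wider genes tested 17 were higher and 12 lower in enterocyte-marker-led cells. Of 9 other Nrf2 targets 5 were higher, Gsta4 by 4.22 ± 0.25 on the log2 scale (SE, adjusted p = 7.20e-10), Osgin1 by 5.03 ± 0.34 (adjusted p = 2.72e-09), Gstm1 by 1.76 ± 0.21, the ferritin gene Fth1 by 1.33 ± 0.22, and Blvrb. Nfe2l2, which encodes Nrf2, was higher by 0.95 ± 0.19 (SE, adjusted p = 0.000925). Selenop was higher by 5.05 ± 0.37 (SE, adjusted p = 7.71e-09), whereas 4 of 8 genes of selenoprotein synthesis, Eefsec, Pstk, Trnau1ap and Sephs1, were lower (edgeR throughout).

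Paneth-marker-led cells differed from ISC-marker-led cells in 1 of the 10 genes. The class held 124 cells, with a median of 231439 reads, and 6 mice with at least 10 such cells entered the fit, all but young mouse 3. Lyz1, the Paneth cell lysozyme and one of the markers that defined the class, lay between 47314 and 137941 CPM, but Lgr5 stood between 132 and 168 CPM in the class, and no doublet caller was run. The fit called 1197 of 19674 genes (6.08%) higher and 1166 (5.93%) lower, with a median log2 fold change over all genes of -0.15, or -0.03 with the size factors of DESeq2, which split the calls into 1411 higher and 645 lower.

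Gpx2 lay between 217 and 332 CPM (median 235) in Paneth-marker-led and between 313 and 516 CPM (median 405) in ISC-marker-led cells and was lower in 6 of 6 mice. Its log2 fold change was -0.71 ± 0.13 (SE, adjusted p = 0.00244, edgeR), and the call held in all 12 alternatives. Prdx1 with -0.53 ± 0.17 (SE, adjusted p = 0.0515, edgeR) and Sod1 with -0.45 ± 0.16 (SE, adjusted p = 0.0731, edgeR) missed the threshold, and both passed it when mice with at least 5 cells were admitted, at adjusted p of 0.0192 and 0.0402, or without the filter. Without aged mouse 2, Prdx1 (adjusted p = 0.0159) and Gpx1 (adjusted p = 0.0485, edgeR) passed. Nqo1 had a log2 fold change of -1.16 ± 0.53 (SE, adjusted p = 0.173, edgeR). Of 81 wider genes 8 were higher, among them 4 other selenoproteins (Selenom, Selenop, Selenos and Selenok), and 14 were lower, among them Prdx3, Prdx4 and Prdx6.

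**Figure D5:**
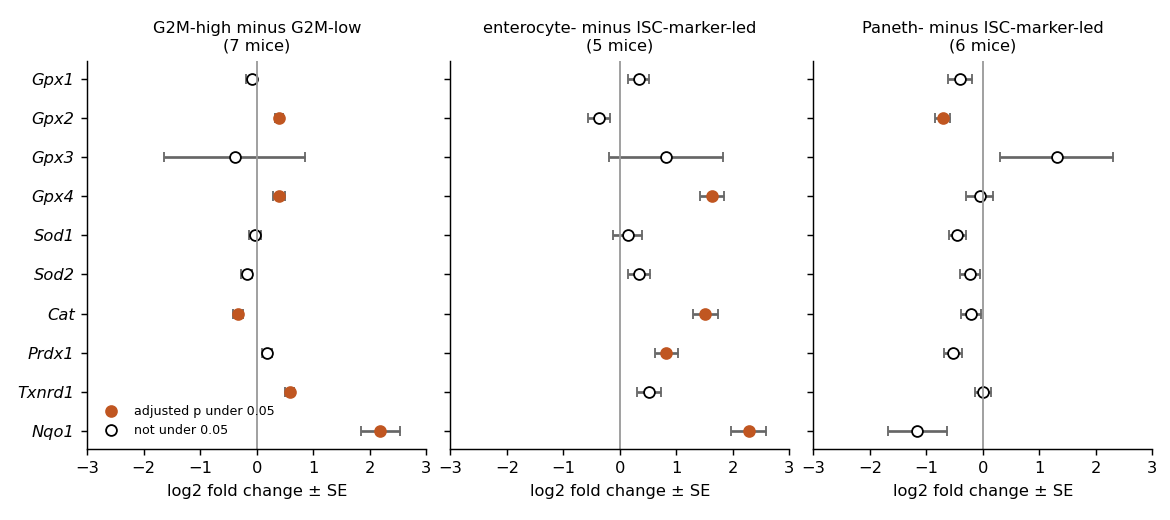
Log2 fold change (x axis; points, with bars of 1 standard error, edgeR with the mouse as a block) of the 10 genes in 3 comparisons of cells within mice; filled points passed an adjusted p of 0.05. Nqo1 lies at 2.18 for G2M-high and 2.28 for enterocyte-marker-led cells, and Gpx2 at -0.71 for Paneth-marker-led cells.

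Goblet-marker-led cells gave no call among the 10 genes. The 53 cells included 23 that led by less than 1 on the log2 scale, and 3 mice had at least 10 of them. In edgeR 565 of 18724 genes (3.02%) were higher and 119 (0.636%) lower than in ISC-marker-led cells, and 0 of the 10 passed, with 0 at an unadjusted p under 0.05 and 0 in DESeq2. Of 81 wider genes 6 were higher (Selenom, Selenop, Selenos, Xdh, Gsta4 and Osgin1) and 0 lower. Tuft and enteroendocrine classes were too small to test.

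Between single ISC-marker-led cells, the pairs of the 10 genes had mean correlations from -0.20 to 0.36. Pearson's r of log2(CPM + 1) was taken within each mouse and averaged over the 7 mice, over 1570 cells. Cells of a mouse are not replicates and differ in depth, so the values are descriptions. The highest among the pairs of the 10 genes was 0.36 for Gpx1 and Prdx1, followed by 0.35 for Gpx1 and Sod1 and 0.35 for Gpx4 and Prdx1. The lowest was -0.20 for Sod1 and Cat. Over all 11863 genes compared, the median r was 0.038 for Gpx1, 0.074 for Prdx1, 0.13 for Gpx4 and -0.053 for Sod1, and the 95th percentile 0.18, 0.25, 0.26 and 0.14. The cytosolic and mitochondrial dismutases, Sod1 and Sod2, had a mean r of 0.03.

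Among 11863 genes with a read in at least 25% of these cells, the ones most like each gene were as follows. Those of Sod1 were the pseudogene Gm8566 (0.82), whose near-identical sequence leaves the split of reads uncertain, Cox4i1 (0.70), a subunit of cytochrome c oxidase, and Rps25 (0.63). Gpx4 was most like its pseudogene Gpx4-ps2 (0.65), then Cox5a (0.41) and Tagln2 (0.40). Prdx1 was most like Slc25a5 (0.63), an ADP/ATP carrier of mitochondria, its pseudogene Gm21399 (0.61) and Eif5a (0.56). Gpx1 was most like Lgals2 (0.51), Cox4i1 (0.50) and Idh3b (0.48), and Gpx2 like Atp5a1 (0.43), Txn1 (0.43) and Cnbp (0.40). The closest to Cat were Eef2 (0.47), Rps2 (0.46) and Ivns1abp (0.44), to Txnrd1 Phykpl (0.42), Ppia (0.40) and Ran (0.40), and to Sod2 Ndufab1 (0.36), Rpl15 (0.35) and Brk1 (0.35). Nqo1 had Dmbt1 (0.30), Cenpf (0.29) and Ccnb1 (0.29), and Cenpf and Ccnb1 are among the 19 genes of the G2M score. For Gpx3, with reads in few cells, the highest was 0.21 for Rhoc.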

How the data were processed

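Single Lgr5high cells of 3 young and 4 aged mice were sequenced by Smart-seq2. The authors mapped single-end reads to GRCm38 with HISAT2 and deposited 1 table of unnormalized counts, with genes in rows and cells in columns. HTSeq stands in the submitters' processing notes. For versions, annotation and strand setting: not given in the sources used here. Of 55471 gene identifiers, 55230 were matched to GENCODE M21, and the other 241 held 0.00279% of reads. Duplicate cells numbered 0. The 10 genes, the wider lists and the comparisons were chosen with earlier results of these data known.

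A minimum of 1000 detected genes removed 84 cells. Counts were summed per mouse, or per mouse and class of cells, and the mouse was the replicate. Genes were tested over the whole table with the quasi-likelihood test of edgeR 4.0.16 under R 4.3.3, after filterByExpr and TMM scaling, and p-values were adjusted by Benjamini-Hochberg, with 0.05 as the limit. That test reports no standard error. The SE given with edgeR values, also in the figures, is the absolute log2 fold change divided by the square root of the F statistic. Class comparisons had the mouse as a block and needed 10 cells per mouse and class (5 for enterocyte-marker-led cells, a limit chosen after seeing the data, as were the limit of 5 for the other classes and the shares in ISC-marker-led cells alone). Cells led by a marker list by less than 1 on the log2 scale stayed in, and no doublet caller was run. Shares of cells were compared after random thinning to 100000 reads (1732 cells), with exact two-sided permutation tests over 35 divisions of the mice. Copies of the genes were sought with BLAST 2.17.0 (at least 300 aligned bases and 90% identity). The lane of a cell was taken from a code in its name, which the labels do not explain and which could also mark a plate. Alternatives were DESeq2 1.42.0, limma voom 3.58.1, DESeq2's size factors, no filter, all cells, thinned cells, ISC-marker-led cells, the replicate number or lane as a block, other class limits and each mouse left out. The scripts were tested on simulated data.

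All 10 genes were named with the value of each mouse; wider genes were named at an unadjusted p under 0.05 or without overlap between ages, and the 3 genes most like each gene by mean r. Wider genes named in class comparisons, and markers given as checks, were chosen after their values were seen. Intervals from reads would cover counting error only and are not given.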

Additional observations from a re-analysis of the deposited data

Results flagged for a closer look

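Among the 4 aged mice, values of the 10 genes were screened for a mouse far from the other 3, by CPM and by the share of cells with a read at 100000 reads a cell, which made 20 screens of which chance flags about 1 in 20. Gpx3 was flagged because aged mouse 1 had a read in 1.20% of its cells, whereas the nearest of the other 3 mice had 3.98% and the highest 4.47%. Young mouse 1 was as low, at 1.37%. Prdx1 was flagged because aged mouse 4 had a read in 99.7% of its cells against 100.0% in the other 3 aged mice. Since those 3 mice were tied at the ceiling, any shortfall in aged mouse 4 would have been flagged. The rate of chance flags given above therefore does not hold for that screen. Young mouse 2 was also at 99.7%. No CPM value was flagged.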

How the results depend on the processing

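With age 0 of the 10 genes passed the adjusted threshold in any alternative. All genes called numbered 0 in edgeR, 205 in DESeq2, 2 in limma voom, 22 without the filter, 15 with thinned cells, 1 with lane as a block, and 0 to 8 when a mouse was left out, with 8 without aged mouse 1. The replicate number as a block gave 2 calls. Same-numbered mice are different animals, and their deviations from the group means correlated at -0.11, 0.19 and -0.23, so the numbers do not pair them. The sign of 4 of the 10 genes turned in some alternative, and the causes were not tested. Txnrd1 was -0.028 with the replicate block, -0.15 with lane as a block and -0.082 to 0.076 with a mouse left out. Sod1 was -0.084 in limma voom and -0.53 to 0.45 with a mouse left out, Gpx3 1.12 with lane as a block and -2.42 to 3.15, and Gpx1 -0.028 to 0.24.

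Differences in the share of cells with a read turned sign for Sod1 at 50000 reads (-0.768 points) and for Txnrd1 at 50000 reads (-0.222), without thinning (-0.610) and in ISC-marker-led cells (-0.484), where that of Gpx1 was 0.0084. With a mouse left out they ran from -0.313 to 0.274 for Gpx1, -0.587 to 0.0759 for Gpx2, -0.0569 to 2.91 for Gpx4, -0.0932 to 0.333 for Sod1, -0.192 to 1.10 for Sod2, -0.0733 to 0.0947 for Prdx1 and -0.497 to 0.940 for Txnrd1. That of Nqo1 was 9.74 to 13.4 points, at exact p of 0.0667 or 0.1, the smallest that the remaining mice allow.

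In Paneth-marker-led cells 3 of the 10 genes were called without the filter, 2 when the leading list was ahead by at least 1, 3 with at least 5 cells, and 1 to 3 with a mouse left out, while all genes called were 1432 (without aged mouse 4) to 2096. In enterocyte-marker-led cells all genes called were 3068 (without aged mouse 4) to 4500 with a mouse left out. In goblet-marker-led cells they numbered 1541 in DESeq2, 1398 without the filter and 424 with at least 5 cells. For G2M-high cells DESeq2 called 3845 genes, and of the 10 genes 3 were called without the filter, 2 without the block and 3 to 5 with a mouse left out. The 23 pairs of gene and class comparison that were called in no setting changed sign in 39 of 229 alternatives. Each age comparison rests on 3 and 4 mice, and the depth of a cell limits what is seen of Nqo1 and Gpx3.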
